A study of Mus musculus and Homo sapiens with 9 samples.

Results

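Interferon regulatory factors (IRFs) are transcription factors, and their transcripts were measured here in RNA-seq libraries in which the cofactor gene IRF2BP2 had been knocked down or knocked out. The members, chosen by their symbols, were IRF1, IRF2, IRF3, IRF4, IRF5, IRF7, IRF8 and IRF9 in the human count table and their namesakes in the mouse count table. These 8 symbols were found as 1 row each among 64252 rows of the human table, and as 1 row each among 43432 rows of the mouse table. The human libraries were of J.gamma1, a derivative of the T cell acute lymphoblastic leukemia (T-ALL) line Jurkat, with a control hairpin (sh-NC, 2 libraries) or a hairpin against IRF2BP2 (sh-IRF2BP2, 2 libraries). Both groups thus came from 1 line that carried a short hairpin, and which IRF2BP2 hairpin was sequenced is not named. The mouse libraries were of splenic CD3+ T cells isolated with magnetic beads, from Irf2bp2 KO mice (2 libraries) or Wild type control mice (3 libraries). In the study the knockout was Vav-iCre+/-;Irf2bp2fl/fl, in which Cre acts throughout the hematopoietic lineage and not in T cells alone, and the controls were Vav-iCre-/- and carried the same floxed alleles. The sample descriptions give no age for the sequenced mice, and the age that the study states stands beside its flow cytometry. Nothing in the sample descriptions says that replicates were separate cultures, so for J.gamma1 the p-values measure only the spread between these samples.

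IRFs share an N-terminal DNA-binding domain that recognises GAAA repeats, the core of the interferon-stimulated response element (ISRE). IRF3 and IRF7 switch on type I interferon genes after pathogen sensing, IRF9 is the DNA-binding subunit of the ISGF3 complex downstream of the interferon receptor, and IRF1 and IRF2 act as activator and attenuator on many of the same ISREs. IRF4 and IRF8 serve lymphoid and myeloid differentiation, and IRF5 serves inflammatory signalling in myeloid and B cells. IRF2BP2 was found as a protein that binds the C-terminal repression domain of IRF2.

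Total counts per library lay between 26648204 and 31120236 for J.gamma1 and between 16668577 and 37177523 for the mouse, where the shallowest was Wild type control replicate 3. Values below are CPM, that is, counts relative to the TMM-scaled size of each library. IRF2BP2 itself was at 204.5 and 198.7 CPM in sh-NC and at 79.0 and 93.8 CPM in sh-IRF2BP2, and Irf2bp2 had 4145, 4594 and 1915 counts in the controls and 0 counts in both KO libraries, which allows up to 0.0783 and 0.0845 CPM. The summed level of 12 T cell markers was 2479 to 2804 CPM over the J.gamma1 libraries and 4708 to 6793 CPM over the mouse libraries, with none at 0 in any library. A gene was called at an adjusted p (edgeR's quasi-likelihood test, Benjamini-Hochberg over all genes tested) under 0.05 together with a log2 fold change, up or down, that reached 0.5 in J.gamma1 or 1 in the mouse.

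In J.gamma1 cells, 3 IRF genes were called: IRF9 and IRF1 were higher and IRF8 was lower in sh-IRF2BP2. Of the 8 members, 7 passed the filter on low counts. Over all 15819 genes tested, 10.5% were called, 5.46% as higher and 5.01% as lower. All 7 members tested had sh-IRF2BP2 libraries on 1 side of both sh-NC libraries, which was so for 58.3% of all genes tested.

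IRF9, the DNA-binding subunit of ISGF3, had the largest fold change among the members. It was at 2.05 and 2.74 CPM in sh-NC and at 10.2 and 7.40 CPM in sh-IRF2BP2, from 53, 85, 296 and 218 counts. Both knockdown libraries lay above both controls by more than the controls differed from each other. The log2 fold change was 1.87 ± 0.29 (SE, n = 2 per group), a 3.65-fold difference with a 95% interval of 1.2 to 2.54 on the log2 scale and an adjusted p (edgeR) of 0.0078. The gene lies at chr14:24161234-24168043 (hg38, plus strand).

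IRF8, which directs myeloid and B cell development, was at 3.90 and 3.74 CPM in sh-NC and at 1.34 and 1.59 CPM in sh-IRF2BP2. The counts behind these values were 101, 116, 39 and 47, and the groups did not overlap. IRF8 fell by 1.38 on the log2 scale (SE 0.32, n = 2 per group, 95% interval -2.11 to -0.65, adjusted p (edgeR) 0.033), or 2.60-fold. Without sh-IRF2BP2 replicate 1 its adjusted p was 0.13 at a log2 fold change of -1.28, and without sh-IRF2BP2 replicate 2 it was 0.065 at -1.51. The gene lies at chr16:85899116-85922606 (hg38, plus strand).

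IRF1, an activator of antigen presentation genes, was at 54.8 and 66.3 CPM in sh-NC and at 88.4 and 83.1 CPM in sh-IRF2BP2. The groups did not overlap, although the control libraries were spread more widely than those with the knockdown. The log2 fold change was 0.50 ± 0.13 (SE, n = 2 per group, 95% interval 0.20 to 0.81, adjusted p (edgeR) 0.049), so that both values stood at the edge of the call. The call was not made with DESeq2, where the log2 fold change was 0.497 at an adjusted p of 0.019, nor without sh-NC replicate 1, where it was 0.366 at 0.078, without sh-IRF2BP2 replicate 1, 0.43 at 0.26, or without sh-IRF2BP2 replicate 2, 0.542 at 0.12. The annotated gene spans chr5:132440440-132508719 (hg38, minus strand), a span that includes long transcripts beyond the main one.

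The other tested members were not called. IRF2, the factor to which IRF2BP2 binds, was at 38.9 and 40.8 CPM in sh-NC and at 43.7 and 49.97 CPM in sh-IRF2BP2 (log2 fold change 0.23, 95% interval -0.07 to 0.53, adjusted p (edgeR) 0.29). IRF3, a constitutively expressed factor that is activated downstream of nucleic acid sensors, was at 42.9 and 45.4 CPM against 40.6 and 39.8 CPM (log2 fold change -0.14, interval -0.42 to 0.15, adjusted p (edgeR) 0.51). For these abundant members the intervals kept the difference under 1 on the log2 scale in either direction.

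IRF5 and IRF7 were less abundant, and their intervals were wide. IRF5 was at 2.32 and 1.68 CPM in sh-NC and at 2.78 and 3.53 CPM in sh-IRF2BP2 (log2 fold change 0.66, interval -0.12 to 1.45, adjusted p (edgeR) 0.25). IRF7, the inducible amplifier of type I interferon, was at 1.58 and 2.29 CPM against 2.34 and 3.12 CPM (log2 fold change 0.49, interval -0.34 to 1.32, adjusted p (edgeR) 0.42). Neither was called, and both intervals took in 0 as well as the fold threshold of the call.

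IRF4, which is induced by T cell receptor signalling, did not pass the filter and was not tested. It had 5 and 2 counts in sh-NC and 18 and 7 in sh-IRF2BP2, near the limit of detection in this line.

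**Figure D1:**
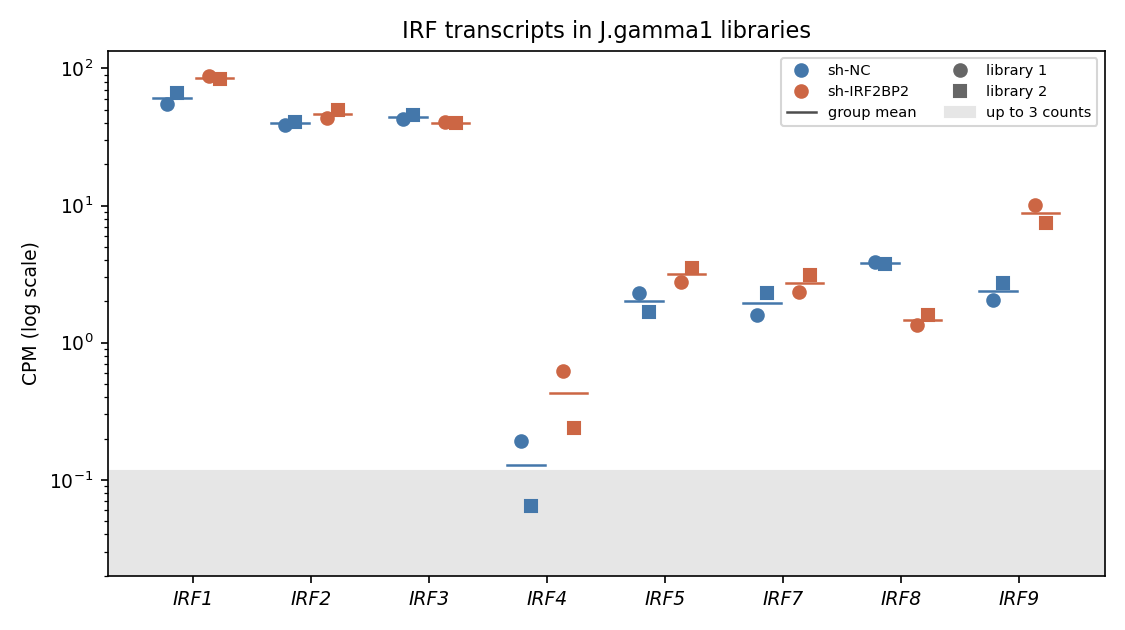
CPM (log scale) of the 8 IRF genes in each J.gamma1 library, with control libraries in blue, sh-IRF2BP2 libraries in orange and bars at the group means. IRF9 stands higher and IRF8 lower in both sh-IRF2BP2 libraries. IRF4 is the lowest gene, with sh-NC replicate 2 inside the grey zone of up to 3 counts and the other libraries above it.

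Several members share exonic bases with other annotated genes, and whether the counting used strand is not named in the sources used here. The exons of IRF9 overlap those of ENSG00000289757, a long non-coding gene on the other strand, over 521 bases (8.05%). They also overlap those of ENSG00000259529, annotated as a protein-coding gene on the same strand, over 1544 bases or 23.9% of the exonic length of IRF9. ENSG00000259529 was at 12.6 and 19.6 CPM in sh-NC and at 21.1 and 25.9 CPM in sh-IRF2BP2 (log2 fold change 0.55, adjusted p (edgeR) 0.17). Reads in the shared bases cannot be assigned with certainty, and ENSG00000259529 was the more abundant in every library, so the uncertainty in the level of IRF9 is not limited to that share. IRF1 overlaps the antisense transcript IRF1-AS1 over 2805 bases (22.9%), and IRF1-AS1 was at 13.8 and 13.4 CPM against 15.2 and 19.2 CPM (log2 fold change 0.34, adjusted p (edgeR) 0.27). IRF3 overlaps BCL2L12 over 734 bases (19.3%), and BCL2L12 was not called either (log2 fold change 0.40, adjusted p (edgeR) 0.11). No gene annotated here overlapped the exons of IRF8. Mouse Irf5 overlaps Tnpo3, on the other strand, over 411 bases (14.15%). Tnpo3 was at 115.9, 102.2 and 135.6 CPM in the controls and at 131.8 and 126.4 CPM in the KO libraries, above Irf5 in each. Mouse Irf9 overlaps Rnf31 on the same strand over 123 bases (2.28%). Mouse Irf1, Irf3 and Irf7 overlap genes on the other strand over up to 3.4% of their exonic length.

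The sequences just before the start sites of IRF1 and IRF9, the called genes that were higher, are shown because the gamma-activated sequence (GAS), the element that STAT dimers bind, was found in each. The window searched ran from 250 bases before to 50 bases after a start, on both strands. For human genes this was the start of the main transcript, and some mouse genes had further start sites. The 250 bases before the start are printed 5′ to 3′ with matches in capitals. Human sequences were read from hg38 at chr5:132490774-132491023 (IRF1, minus strand) and chr14:24161015-24161264 (IRF9, plus strand). The mouse sequence, from RefSeq on GRCm38.p6, lies at chr11:53769764-53770013 (Irf1, plus strand) and is shown for the match that both species held.
human IRF1: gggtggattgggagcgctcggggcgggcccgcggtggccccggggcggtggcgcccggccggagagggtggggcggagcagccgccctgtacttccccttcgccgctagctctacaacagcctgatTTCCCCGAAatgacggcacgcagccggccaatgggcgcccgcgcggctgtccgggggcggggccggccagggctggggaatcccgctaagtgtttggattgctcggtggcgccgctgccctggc
human IRF9: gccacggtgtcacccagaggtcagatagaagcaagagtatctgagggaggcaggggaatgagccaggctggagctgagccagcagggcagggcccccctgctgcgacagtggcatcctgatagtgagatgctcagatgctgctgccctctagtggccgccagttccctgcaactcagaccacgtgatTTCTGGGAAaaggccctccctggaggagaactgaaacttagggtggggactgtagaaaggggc
mouse Irf1: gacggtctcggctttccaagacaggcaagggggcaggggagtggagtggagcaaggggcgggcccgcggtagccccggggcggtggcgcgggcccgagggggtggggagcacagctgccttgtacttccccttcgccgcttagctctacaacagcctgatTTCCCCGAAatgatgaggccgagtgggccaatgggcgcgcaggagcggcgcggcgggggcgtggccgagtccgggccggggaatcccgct

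Windows of 7 human IRF genes were searched, IRF1 to IRF5, IRF7 and IRF9, and IRF8 was left out of the search in both species. The GAS pattern TTCNNNGAA was present in 4 of the 7 (IRF1, IRF2, IRF7 and IRF9). It was present in 6.5% of the windows of 20046 human protein-coding genes. The match of IRF1 began 124 bases before the start and that of IRF9 63 bases before it. IRF2 and IRF7, which were not called, held 1 match each. Of 7 mouse Irf genes, searched in 9 windows, the pattern was present in Irf1 and Irf2. Irf1 and Irf9 were each searched at a further start site as well, without a match there. The pattern was present in 8.3% of 32851 mouse windows, a share by window and not by gene. The same 9 letters stood in both species for IRF1 (TTCCCCGAA) and IRF2 (TTCCGAGAA). The ISRE core, searched as 2 copies of GAAA with any 2 bases between them, was present in none of the human IRF windows searched and in 1 mouse gene, Irf2, against 3.28% of human and 3.44% of mouse windows. No match of either pattern overlapped one of the other.

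Levels can be compared between genes only per length, and per kilobase of exon the control J.gamma1 libraries were dominated by 3 members. IRF3 was at 11.6 ± 0.47 CPM per kb (SD, n = 2), IRF2 at 5.92 ± 0.20 and IRF1 at 4.94 ± 0.67. The others followed at 0.741 (IRF7), 0.487 (IRF8), 0.370 (IRF9), 0.281 (IRF5) and 0.0216 CPM per kb (IRF4). The control libraries of IRF9 and IRF5 overlapped, and the other neighbours in this order did not overlap. Per kilobase of the main transcript alone IRF9 (1.47 CPM per kb) stood above IRF8 (1.43) and IRF7 (1.01), and IRF2 (17.6) and IRF1 (17.0) nearly coincided, so the order within these pairs rests on the length used.

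The genes that act around the IRFs were taken as fixed lists, to be read beside the 10.5% of all 15819 genes tested that were called. Small unadjusted p-values were common as well: ENSG00000259529, at 0.046 (edgeR), ranked 4226 by p among all genes tested. Of 11 interferon receptors, JAK kinases and STAT factors tested, 4 were called higher and 0 lower in sh-IRF2BP2, and 6 had an unadjusted p under 0.05. The list's median log2 fold change was 0.29, beside 0.01 over all genes tested. STAT4, which transmits interleukin-12 signals, was at 2.24 and 1.90 CPM against 6.42 and 5.70 CPM (log2 fold change 1.55, adjusted p (edgeR) 0.013). IFNAR2, a chain of the type I interferon receptor, was at 83.8 and 91.6 CPM against 142.9 and 147.0 CPM (0.73, adjusted p (edgeR) 0.0094). STAT3 rose by 0.62 on the log2 scale (adjusted p (edgeR) 0.018), and JAK1, a kinase of interferon receptors, rose by 0.61 (adjusted p (edgeR) 0.017). Without sh-IRF2BP2 replicate 1, or without replicate 2, 2 genes of the list were called higher. STAT2, a partner of IRF9 in ISGF3, was looked at after its values were seen: it was at 26.4 and 34.6 CPM in sh-NC and at 20.7 and 30.3 CPM in sh-IRF2BP2, with overlapping groups and an adjusted p (edgeR) of 0.47.

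Upstream of the IRFs the calls went both ways. Of 15 sensors, adaptors and kinases tested, 2 were called higher and 1 lower, with a median log2 fold change of 0.24. STING1, the adaptor of cytosolic DNA sensing, was at 30.6 and 35.8 CPM against 70.2 and 72.3 CPM (log2 fold change 1.10, adjusted p (edgeR) 0.003). IKBKE, a kinase of IRF3 and IRF7, rose by 0.86 on the log2 scale (adjusted p (edgeR) 0.0074), and TRAF3, an adaptor that joins sensors to such kinases, fell by 0.81 (adjusted p (edgeR) 0.008). Without sh-NC replicate 1, 4 genes of this list were called higher and 2 lower. Of 12 brakes on interferon and IRF signalling, 3 were called lower and 1 higher at a median of -0.10. RBCK1 and OTUB1, enzymes of the ubiquitin system, and PTPN2, a phosphatase of JAK and STAT proteins, fell by 0.80, 0.66 and 0.61 on the log2 scale (adjusted p (edgeR) 0.011, 0.018 and 0.018), and the phosphatase gene PTPN6 rose by 0.59 (adjusted p (edgeR) 0.022). The counts changed with single libraries left out: without sh-IRF2BP2 replicate 1 the list had 0 called lower and 0 higher, without sh-IRF2BP2 replicate 2 it had 1 lower and 0 higher, and without sh-NC replicate 1 it had 4 lower and 2 higher.

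Of 17 partner factors and cofactors of IRF proteins tested, 3 were called higher and 0 lower at a median log2 fold change of 0.19, and 8 had an unadjusted p under 0.05. They were JUN (1.01, adjusted p (edgeR) 0.013) and JUND (0.59, adjusted p (edgeR) 0.034), AP-1 subunits, and the acetyltransferase gene CREBBP (1.00, adjusted p (edgeR) 0.014). Without sh-IRF2BP2 replicate 1, 2 genes of the list were called higher, without sh-IRF2BP2 replicate 2 it was 1, and without sh-NC replicate 2 there was 1 called lower. IFNG was the sole interferon gene that could be tested of 5 listed. It had 0 counts in both sh-NC libraries, which allows up to 0.116 and 0.0967 CPM, and was at 0.447 and 0.407 CPM in sh-IRF2BP2. IFNG was called higher (adjusted p (edgeR) 0.028), a call that was not made with DESeq2 or with counts divided by 2.

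Of 24 interferon-stimulated genes with ISRE elements tested, 2 were called higher and 1 lower, beside 10.5% of all genes tested, and the median log2 fold change was 0.21. XAF1, a pro-apoptotic interferon-induced gene, was at 33.1 and 28.3 CPM in sh-NC and at 69.1 and 65.5 CPM in sh-IRF2BP2 (log2 fold change 1.13, adjusted p (edgeR) 0.003). IFIT2 rose by 1.03 (adjusted p (edgeR) 0.024), and the 2-5A synthetase gene OAS1 fell by 1.00 on the log2 scale (adjusted p (edgeR) 0.05). With either sh-IRF2BP2 library left out, 1 gene of the list was called higher and 0 lower. With either sh-NC library left out, 3 were called higher, and the lower call was lost without replicate 1. Of 17 IRF1 and IRF2 targets tested, 2 were called higher and 0 lower at a median of 0.21, and 5 had an unadjusted p under 0.05. They were TAP2 of the peptide transporter (1.18, adjusted p (edgeR) 0.042) and ERAP1, which trims antigenic peptides (0.60, adjusted p (edgeR) 0.023). These counts, too, stood near the background of 10.5%, and the number called higher was 0 without sh-IRF2BP2 replicate 1, 1 without sh-IRF2BP2 replicate 2, and, of the sh-NC libraries, 3 with replicate 1 left out and 4 with replicate 2 left out.

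Of 11 IRF4-linked genes of T cell activation tested, 4 were called higher and 1 lower, beside 10.5% of all genes tested. The list's median log2 fold change was 0.17. MAF, a factor of helper T cell differentiation, went from 0.116 and 0.258 CPM to 9.14 and 13.0 CPM (adjusted p (edgeR) 0.00076). IL2RA, the interleukin-2 receptor alpha chain, went from 0.0772 and 0.0645 CPM, values at or under 3 counts, to 1.96 and 3.19 CPM (adjusted p (edgeR) 0.003). PRDM1, encoding the repressor Blimp-1, went from 1.74 and 1.87 CPM to 4.47 and 4.95 CPM (log2 fold change 1.38, adjusted p (edgeR) 0.024), while MYC fell by 0.74 on the log2 scale (adjusted p (edgeR) 0.04). With either sh-IRF2BP2 library left out, 2 genes of the list were called higher, and the lower call was lost without sh-IRF2BP2 replicate 2. These lists and the members were measured in the same 4 libraries, so their counts are not separate evidence.

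The genes of at least 10 mean CPM whose pattern over the 4 J.gamma1 libraries was nearest to IRF8 were DHTKD1, DBT and IRF2BP2 itself, at a root mean square difference of library-centred log2 CPM of 0.0567, 0.058 and 0.0593. The nearest to IRF9 were UMAD1, ID3 and CREB3L3 (0.0993, 0.145 and 0.161), and the nearest to IRF1 were PLEKHA3, EID1 and RPL13P5 (0.0177, 0.0208 and 0.0227). Their log2 fold changes were close to that of the member by construction.

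Markers of other cell types were checked because IRF8 and IRF4 are genes of B cells and myeloid cells. The summed level of 8 B cell markers was 54.5 and 69.2 CPM in sh-NC and 19.95 and 22.6 CPM in sh-IRF2BP2. Most of that sum was CD79A, a gene singled out after its values were seen (45.6 and 60.5 CPM against 11.2 and 14.0 CPM). The other B cell markers tested, CD79B, EBF1 and CR2, were not called, at log2 fold changes of -0.11, -0.01 and 0.36. MS4A1 and FCRLA were at 0 in all 4 libraries. The 8 plasma cell markers summed to 143.2 and 159.9 CPM against 92.9 and 90.1 CPM, with TNFRSF17 at 0 throughout. Among them MZB1 was called lower (log2 fold change -1.18) and PRDM1 higher (1.38). The 8 dendritic markers lay between 37.5 and 48.0 CPM with overlapping groups. The 9 monocyte and macrophage markers summed to at most 4.51 CPM and the 6 neutrophil markers to at most 0.419 CPM. The part of these genes in the IRF8 result was not tested.

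In mouse splenic CD3+ T cells, no Irf gene was called between Irf2bp2 KO and control, and all 8 were tested. By edgeR 2 members (Irf4 and Irf7) had an unadjusted p under 0.05, and DESeq2 also called 0. Such p-values were common: by p (edgeR), Irf7 at 0.024 ranked 1636 and Irf3 at 0.086 ranked 3324 among all 15350 genes tested. Over all 15350 genes tested, 2.58% were called, 2.47% as higher and 0.111% as lower. In bulk libraries fewer cells that express a gene and less of its RNA per cell cannot be told apart.

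Irf4 was at 27.3, 20.8 and 17.3 CPM in the controls and at 38.7 and 31.5 CPM in the KO libraries. Both KO libraries lay above all 3 controls, and the log2 fold change was 0.69 ± 0.22 (SE, 95% interval 0.15 to 1.22, adjusted p (edgeR) 0.20), the smallest p of the members. The nearest genes in pattern over the 5 libraries were Tlr6, Asb2 and Cxcr5 (root mean square difference 0.0741, 0.0876 and 0.109 on the log2 scale). Plasma cells and dividing T cells also express Irf4: the 8 plasma cell markers summed to 1159, 416.3 and 537.1 CPM in the controls and to 1514 and 1146 CPM in the KO libraries, and the 6 proliferation markers to 376.9, 480.3 and 322.8 CPM against 1047 and 1192 CPM. Most of each plasma cell sum was Jchain, a gene singled out after its values were seen (1029, 308.0 and 456.4 CPM against 1311 and 991.5 CPM). Among these plasma cell genes Prdm1 was called and the other 7, Jchain included, were not. The part of such cells in the Irf4 values was not tested.

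Irf7 was at 84.7, 93.0 and 74.0 CPM in the controls and at 52.9 and 67.5 CPM in the KO libraries, with no overlap (log2 fold change -0.48, 95% interval -0.87 to -0.09, adjusted p (edgeR) 0.23). Irf9, Irf3 and Irf1 also had both KO libraries below all 3 controls. Irf9 was at 128.5, 164.8 and 137.8 CPM against 109.7 and 124.6 CPM (log2 fold change -0.30, interval -0.66 to 0.07, adjusted p (edgeR) 0.42). Irf3 was at 121.7, 141.1 and 106.7 CPM against 101.3 and 98.4 CPM (log2 fold change -0.30, interval -0.66 to 0.06, adjusted p (edgeR) 0.40). Irf1, the most abundant member, was at 260.4, 248.0 and 260.1 CPM against 239.6 and 205.7 CPM (log2 fold change -0.20, interval -0.51 to 0.11, adjusted p (edgeR) 0.52). In all, 5 members had groups that did not overlap, 4 lower and 1 higher in the KO, and such separation was seen for 36% of all genes tested. Beside these lower values, the 12 T cell markers summed to 5856, 6793 and 5897 CPM in the controls and to 4708 and 4944 CPM in the KO libraries, and the 7 erythroid markers to 1436, 829.6 and 378.5 CPM against 2931 and 4109 CPM. What part this had in the lower values was not tested.

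Irf2 was at 98.5, 130.0 and 126.3 CPM in the controls and at 116.6 and 116.0 CPM in the KO libraries, within the spread of the controls (log2 fold change -0.02, interval -0.39 to 0.35, adjusted p (edgeR) 0.96).

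**Figure D2:**
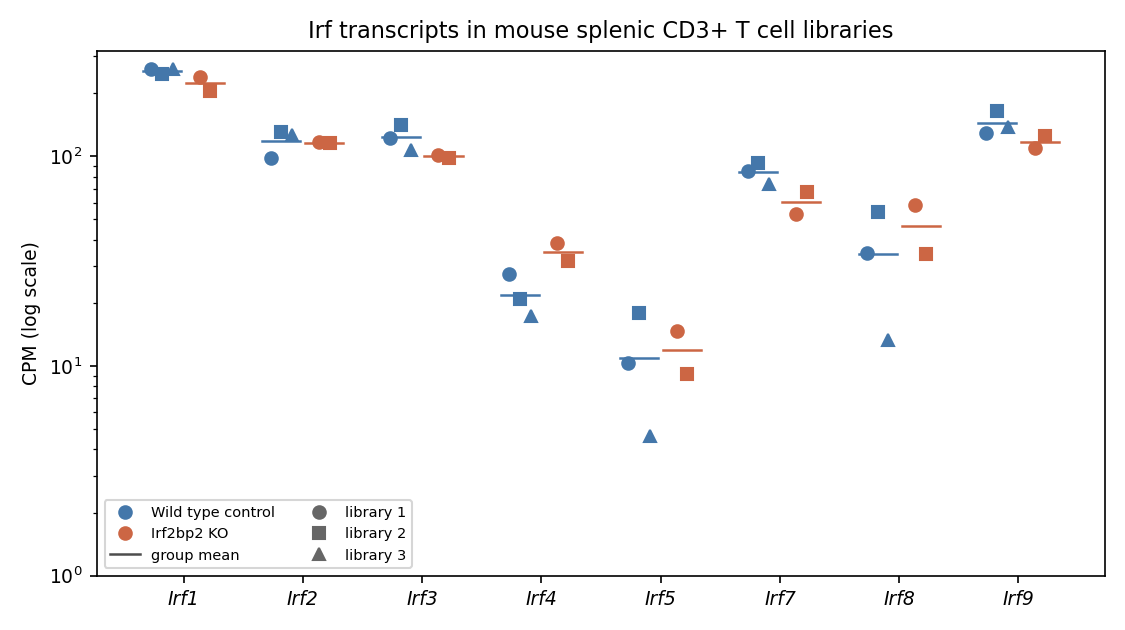
CPM (log scale) of the 8 Irf genes in each mouse library, with controls in blue, Irf2bp2 KO in orange and bars at the group means. Irf7 stands lower and Irf4 higher in both KO libraries, while Irf5 and Irf8 spread over the controls as widely as between the groups.

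Irf8 and Irf5, the members tied to B cells and myeloid cells, differed more among the controls than between the groups. Irf8 was at 34.5, 54.2 and 13.3 CPM in the controls and at 58.7 and 34.1 CPM in the KO libraries (log2 fold change 0.44, 95% interval -0.81 to 1.70, adjusted p (edgeR) 0.75). Irf5 was at 10.3, 18.0 and 4.63 CPM against 14.7 and 9.18 CPM (log2 fold change 0.11, interval -1.15 to 1.37, adjusted p (edgeR) 0.95). Among the controls, replicate 2 was highest and replicate 3 lowest for both genes. The 8 B cell markers followed the same order in the controls, at 122.3, 210.4 and 27.9 CPM, and stood at 108.9 and 33.9 CPM in the KO libraries. The 9 monocyte and macrophage markers did so too, at 217.2, 375.0 and 76.6 CPM against 249.2 and 164.2 CPM, as did the 6 neutrophil markers, at 39.0, 177.6 and 5.44 CPM against 47.9 and 25.4 CPM. The 8 dendritic markers summed to 35.7, 45.0 and 16.5 CPM in the controls and to 74.3 and 56.1 CPM in the KO libraries, and 1 of them was called. None of the B cell, monocyte or neutrophil markers was at 0 in any mouse library. The part of these cells in the Irf8 and Irf5 values was not tested.

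**Figure D3:**
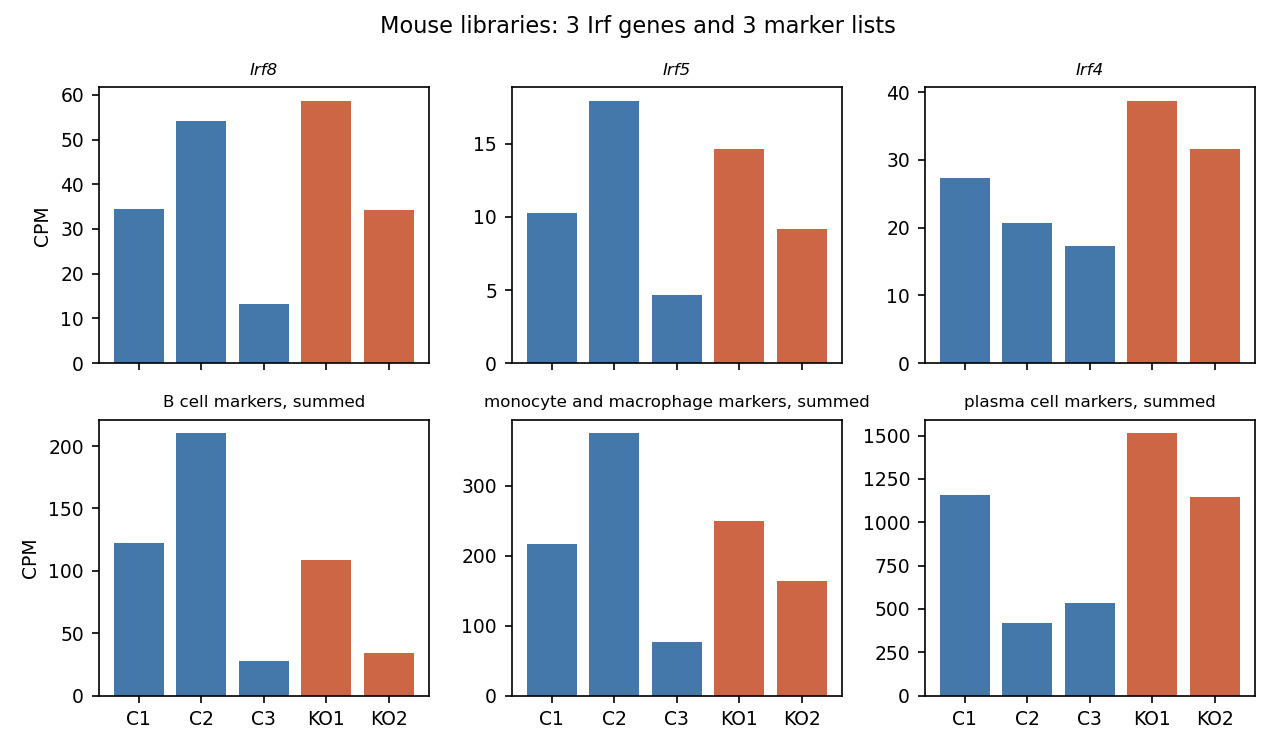
CPM of Irf8, Irf5 and Irf4 (upper row) and summed CPM of B cell, monocyte and macrophage, and plasma cell markers (lower row) in the 3 control (C, blue) and 2 Irf2bp2 KO (orange) libraries, with bars from 0. Irf8 and Irf5 are lowest in control 3, where the B cell sum (27.9 CPM) and the monocyte and macrophage sum (76.6 CPM) are lowest too.

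**Figure D4:**
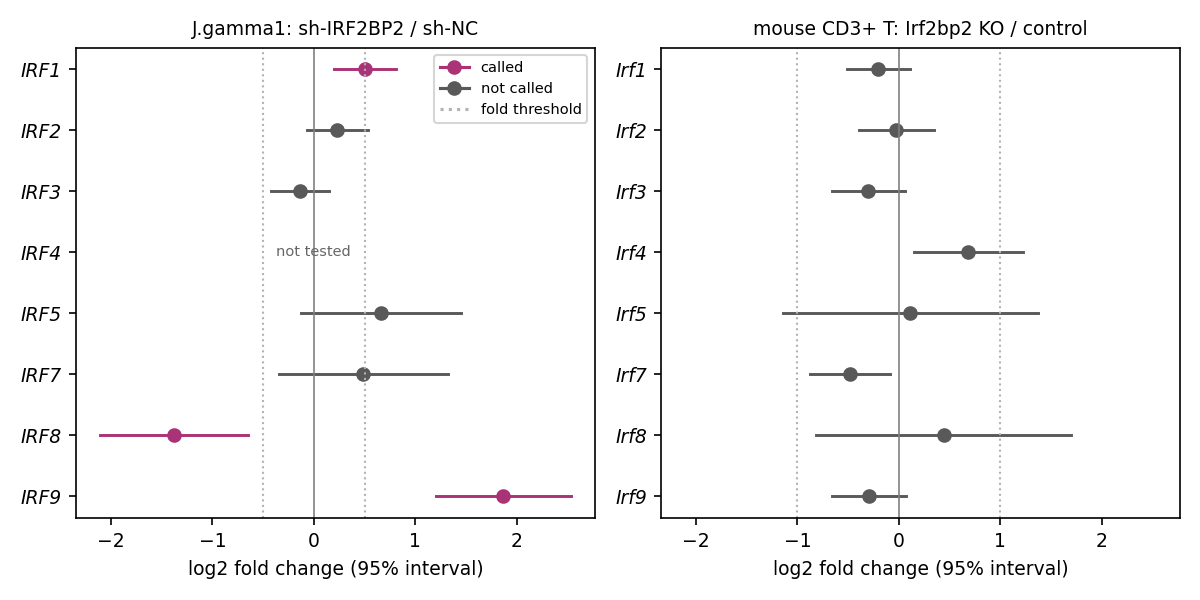
Log2 fold changes (points) with 95% intervals (lines) of the IRF genes in J.gamma1 (left, sh-IRF2BP2 over sh-NC) and mouse T cells (right, Irf2bp2 KO over control), called genes in purple and fold thresholds dotted. IRF1, IRF8 and IRF9 are called on the left and no gene on the right, where the intervals of Irf4 and Irf7 leave out 0.

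Per kilobase of exon, Irf1 was the most abundant member in the mouse controls at 64.4 ± 1.8 CPM per kb (SD, n = 3). Irf3 was at 35.8 ± 5.0, Irf9 at 26.7 ± 3.5, Irf7 at 22.2 ± 2.5 and Irf2 at 16.0 ± 2.3 CPM per kb. Irf8 (4.82), Irf4 (4.44) and Irf5 (3.77 CPM per kb) formed the low end, where each overlapped its neighbour, and Irf9 and Irf7 overlapped as well. Per kilobase of the main transcript alone Irf2 (47.4 CPM per kb) stood above Irf7 (43.8) and Irf5 (4.89) above Irf4 (4.57), so the order within these pairs rests on the length used. The human and mouse tables were scaled separately, so levels are compared within each table only.

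**Figure D5:**
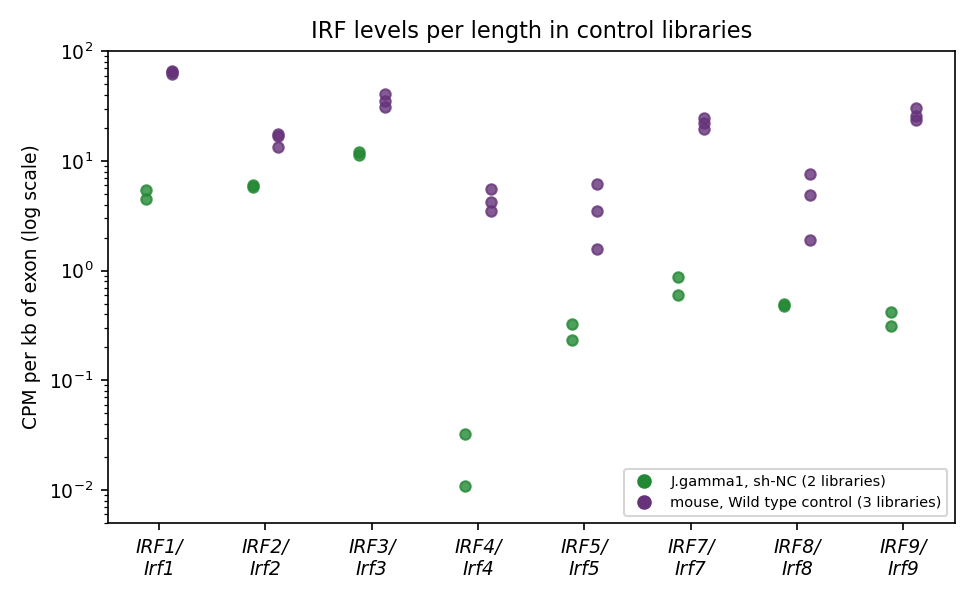
CPM per kb of exon (log scale) of each IRF gene in the control libraries of J.gamma1 (green) and mouse CD3+ T cells (purple), each point 1 library. IRF1, IRF2 and IRF3 stand highest in J.gamma1, and Irf1 stands highest in the mouse cells.

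The same lists were examined in the mouse, where 2.58% of all genes tested were called. Of 10 interferon receptors, JAK kinases and STAT factors tested, edgeR and DESeq2 called 0, and 2 had an unadjusted p under 0.05 (edgeR). The list's most abundant genes, Jak1 and Stat3, had log2 fold changes of -0.04 and 0.09, and the list's median was -0.04, beside -0.02 over all genes tested. Both tools also called 0 of 19 sensors, adaptors and kinases (3 with an unadjusted p under 0.05 by edgeR), with Ikbke at a log2 fold change of -0.24 and Ddx58, which encodes the RNA sensor RIG-I, at -0.30. They called 0 of 19 partner factors (4 with such a p), with Ikzf1 at -0.14, and 0 of 12 brakes (3 with such a p).

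Junb and Tnfaip3, also named from those lists, split the libraries across the groups. Junb, an AP-1 subunit, was at 141.7, 157.8 and 472.2 CPM in the controls and at 199.8 and 771.2 CPM in the KO libraries (adjusted p (edgeR) 0.59). Tnfaip3, a brake on NF-kB, was at 89.5, 71.9 and 199.8 CPM against 124.6 and 840.9 CPM (adjusted p (edgeR) 0.26). Control replicate 3 and KO replicate 2 were thus the highest of their groups for both genes. Ptpn6, a phosphatase gene, did not share that split and was at 302.4, 462.5 and 366.0 CPM against 228.8 and 256.5 CPM (log2 fold change -0.64, adjusted p (edgeR) 0.19).

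Of 25 interferon-stimulated genes tested in the mouse, 1 was called higher and 0 lower, at a median log2 fold change of -0.12. It was Rsad2, which encodes the antiviral protein viperin, at 14.9, 15.7 and 8.63 CPM in the controls and at 48.1 and 46.7 CPM in the KO libraries (log2 fold change 1.85 ± 0.26 (SE), adjusted p (edgeR) 0.019). The list had 0 called higher without Wild type control replicate 1 or either KO library, and 3 without Wild type control replicate 2. Of 18 IRF1 and IRF2 targets, Casp1, which encodes an inflammatory caspase, was called higher and no gene lower: it was at 16.5, 12.7 and 14.0 CPM against 40.5 and 43.1 CPM (1.54 ± 0.17, adjusted p (edgeR) 0.01). That call, too, was lost without Wild type control replicate 1 or either KO library. Of 16 IRF4-linked genes, 2 were called higher and 0 lower. Prdm1 was at 14.1, 8.80 and 9.82 CPM against 30.2 and 28.4 CPM (1.42 ± 0.24, adjusted p (edgeR) 0.032), and Maf was at 44.2, 38.3 and 38.6 CPM against 74.6 and 91.3 CPM (1.04 ± 0.14, adjusted p (edgeR) 0.019). Without Wild type control replicate 1, or without Irf2bp2 KO replicate 2, 0 of the IRF4-linked genes were called, without Wild type control replicate 3 or Irf2bp2 KO replicate 1 it was 1, and DESeq2 called 5. Ifng, the sole interferon gene tested, was not called (2.75, 2.13 and 4.76 CPM against 8.20 and 13.1 CPM, adjusted p (edgeR) 0.086), whereas DESeq2 called it. PRDM1 and MAF were thus called higher in both data sets, with all libraries in, and no IRF gene was. The share of all symbols called higher in both was not taken, and the fold thresholds of the calls differed.

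Side by side, IRF1, IRF7 and IRF9 were higher in both sh-IRF2BP2 libraries of J.gamma1 and lower in both Irf2bp2 KO libraries of mouse T cells, in each case without overlap. This combination was found for 5.07% of 9899 symbols tested in both tables. Opposite sides were looked for in either direction and found for 3 of 7 IRF symbols, whereas the 5.07% counts this direction alone. IRF1 and IRF9 were called in J.gamma1, and none of these genes was called in the mouse. The difference between the species was not tested, since the tables hold different cells, interventions and depths. IRF3 was lower without overlap in both data sets, at log2 fold changes of -0.14 and -0.30, and was called in neither. The share of all symbols with that pattern was not taken.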

How the data were processed

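RNA-seq libraries of J.gamma1 cells and of mouse splenic CD3+ T cells were grouped by their labels. The authors aligned reads with HISAT2 2.2.0 (hg38 and mm10, per the submitters' processing notes), used StringTie for abundance, and the counts deposited by the authors are whole numbers for each gene and library, not normalized. How coverage became counts, and strand use, are not given in the sources used here. Rows were kept when their identifier was in GENCODE (release v44 for human, M21 for mouse). This left 15819 human and 15350 mouse genes after filterByExpr, which, after TMM scaling, entered the quasi-likelihood test of edgeR 4.0.16 (R 4.3.3), with condition as the sole term and 2 (J.gamma1) or 3 (mouse) residual degrees of freedom. DESeq2 1.42.0, other scalings, filters and fold thresholds, counts divided by 2, all rows, a replicate block and each library left out were alternatives. Replicates differed by more than sampling noise. The named genes were the members, IRF2BP2, genes overlapping a member, the 3 genes nearest in pattern to a called member (or to the one with the smallest p), and in each list up to 4 called genes by size of change or, with none called, the 2 most abundant. Members and lists were chosen with earlier results of these data known, and some items that met the rules are not reported here. An interval or limit from a count of 0 (3 counts) covers counting error only. The edgeR test was also run on simulated counts. Among 15481 J.gamma1 genes it recovered 71 of 100 changed by 1 and 98 of 100 changed by 2 on the log2 scale. Among 14976 mouse genes it recovered 55 and 78 of 100. Recovery meant an adjusted p (edgeR) under 0.05 with the right sign, without the fold threshold of a call. The changed genes were drawn from those of at least 1 mean CPM. At that adjusted p, 8 unchanged genes also passed in each data set.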

Additional observations from a re-analysis of the deposited data

Results flagged for a closer look

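For IRF1, IRF7 and IRF9 the libraries with less or no IRF2BP2 lay on opposite sides of the controls in the 2 data sets. In J.gamma1 cells both sh-IRF2BP2 libraries lay above both sh-NC libraries, at log2 fold changes of 0.50 (IRF1), 0.49 (IRF7) and 1.87 (IRF9), and IRF7 was not called there (adjusted p (edgeR) 0.42). In mouse T cells both Irf2bp2 KO libraries lay below all 3 controls, at log2 fold changes of -0.20 (Irf1), -0.48 (Irf7) and -0.30 (Irf9), and none was called (adjusted p (edgeR) 0.52, 0.23 and 0.42). The same arrangement was found for 5.07% of 9899 symbols tested in both tables, a share that leaves out the reverse arrangement, although either would have been flagged. The difference itself was not tested.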

How the results depend on the processing

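IRF9 was called higher in J.gamma1 under every alternative run, at log2 fold changes of 1.6 to 2.1. The number of IRF genes called in J.gamma1 was 3, against 1 with every gene of at least 1 count in any library and 2 with DESeq2. With single libraries left out it was 1 to 3, and IRF8 and IRF1 lost their calls without either sh-IRF2BP2 library. Among the refitted settings, IRF1 kept its call with the replicate block and without sh-NC replicate 2 and lost it in the other 10. All genes called in J.gamma1 numbered 1657, against 715 with at least 1 count in any library and 580 at a fold threshold of 1, and 837 (without sh-IRF2BP2 replicate 1) to 2751 (without sh-NC replicate 1) with single libraries left out, with 1034 without sh-IRF2BP2 replicate 2. In the mouse, 0 IRF genes were called with the settings of the report and under each alternative run. All genes called in the mouse numbered 396, against 797 with DESeq2 and 7 (without Wild type control replicate 1) to 567 (without Wild type control replicate 2) with single libraries left out, with 50 without Irf2bp2 KO replicate 1 and 10 without Irf2bp2 KO replicate 2. No cause was tested.

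The sign changed for 3 mouse members whose intervals spanned 0. With single libraries left out, Irf2 ranged from -0.135 to 0.0699, Irf5 from -0.284 to 0.668 and Irf8 from -0.0224 to 0.95 on the log2 scale, and Irf2 was at 0.0218 with at least 10 counts in every library. With the replicate number as a block, 3 IRF genes were called in J.gamma1 (2467 genes in all) and 0 in the mouse (442 in all), with Irf2 at 0.0391 and Irf5 at -0.228. Deviations of same-numbered libraries correlated at 0.308 in J.gamma1 and at 0.268 and -0.0518 in the mouse. Where a group has 2 libraries their deviations mirror each other, so these values cannot decide whether the numbers pair the samples. IRF4 in J.gamma1 had too few counts to pass the filter with the settings of the report.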
